A study of Mus musculus with 30 samples.

Results

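Sperm collected 46 days after the last injection was compared between males given tesaglitazar (Tesa-inj) and males given vehicle (Vehicle-inj). The 14 libraries were chosen by their labels, condition and time after injection, from 30 samples in the series, and hold 7 Tesa-inj libraries (KG8-01 to KG8-05, KG8-11 and KG8-12) and 7 Vehicle-inj libraries (KG8-06 to KG8-10, KG8-13 and KG8-14). All males were C57Bl/6J mice, 3 months old at injection, with no other treatment named. Tesa-inj males received tesaglitazar, an agonist of both PPARα and PPARγ, intraperitoneally at 10 µg per kg body weight, 2 times per week for 4 weeks. Vehicle-inj males received the same amount of DMSO in 0.9% saline on the same schedule. The comparison asks which sperm RNAs differ after a delay that spans a full cycle of spermatogenesis. Mature sperm were taken from the cauda epididymis and treated to lyse somatic cells, and total RNA was depleted of rRNA before sequencing. The study counts animals as its n, but the labels do not say which male each library came from, so p-values rest on the spread between these libraries. In edgeR's test that spread is estimated in part over all tested features. The p-value of 1 feature therefore need not follow that feature's own spread.

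Transcription ends before sperm mature, and their RNA can be left over from germ cells at earlier steps or taken up during passage through the epididymis. During spermiogenesis histones are replaced by transition proteins and then protamines, and the tail is built from an axoneme, outer dense fibres and a fibrous sheath. PPARα and PPARγ are nuclear receptors that pair with retinoid X receptors and switch on genes of fatty acid oxidation, lipid storage and cholesterol export. In these bulk samples fewer cells of a type and less RNA per cell cannot be told apart.

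The sperm libraries were dominated by RNA of ribosomal origin and by a few repeat families. Rn18s-rs5, related in sequence to 18S rRNA, made up 56.9% of the counts and Yam1 17.5%, followed by the SINE family B4A with 3.37%, the young LINE family L1Md_F2 with 2.64% and Rn7s1, a 7S RNA, with 2.22% over all libraries. The median share of Rn7s1 was 0.792% in Tesa-inj and 1.22% in Vehicle-inj, where it reached 11.8% in KG8-14. Nuclear protein-coding genes took 0.345% to 20.7% of the counts of a Tesa-inj library (median 1.76%) and 2.35% to 33.2% of a Vehicle-inj library (median 4.14%). The highest share in each group was that of KG8-11 and KG8-14, and the groups overlapped. Library totals ran from 4538102 counts (KG8-10) to 13513816 (KG8-04), while the share outside the 5 most abundant features ran from 1.81% in KG8-02 to 74.0% in KG8-14 and was 7.12% in KG8-12. More than 20 counts were reached by 623 of the 3082 features in KG8-02, 1518 in KG8-12 and 3079 in KG8-14, so precision for single genes was lowest in KG8-02.

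**Figure D1:**
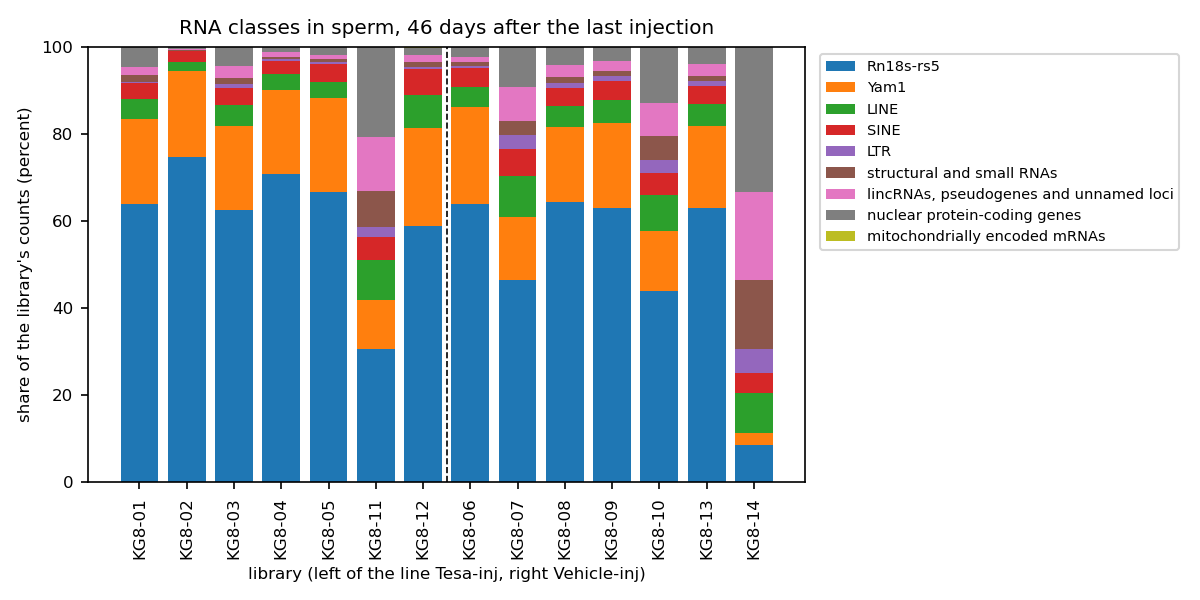
Share of each library's counts (percent, y axis) by RNA class, with 7 Tesa-inj libraries left of the dashed line and 7 Vehicle-inj libraries right of it. Rn18s-rs5 took between 8.64% (KG8-14) and 74.8% (KG8-02) of the counts, and mitochondrially encoded mRNAs are too small a share to be seen.

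None of the 10 RNA classes had an adjusted p under 0.05 for its share of the counts. LTR elements, the remains of retroviruses with long terminal repeats, took 0.117% to 2.22% of the counts in Tesa-inj (median 0.417%) and 0.454% to 5.50% in Vehicle-inj (median 1.22%). The means were 0.686% ± 0.709 (SD, n = 7) and 2.25% ± 1.78 (SD, n = 7), with p = 0.0460 in a two-sided exact permutation test and 0.452 after adjustment, and without KG8-12 the same exact test gave p = 0.0746 (adjusted 0.264). Leaving out KG8-14 cut the LTR difference from -1.57 to -1.03 percentage points, and over all libraries left out in turn the exact permutation p ran from 0.0134 (without KG8-11) to 0.0857 (without KG8-14). SINE elements averaged 4.06% ± 1.202 (SD, n = 7) of Tesa-inj counts against 4.68% ± 0.726 (SD, n = 7) of Vehicle-inj counts, with p = 0.265 in the exact permutation test, and without KG8-12 the mean of Tesa-inj was 3.75% ± 0.961 (SD, n = 6) and the permutation p was 0.0752. The SINE difference of -0.616 points shrank to -0.351 without KG8-02 and -0.368 without KG8-07 (exact permutation p = 0.489 and 0.484). In libraries 1 to 10 alone, the exact permutation p was 0.00794 for SINE elements (3.44% against 4.77%), 0.0238 for LTR and 0.0317 for LINE elements, each 0.0794 after adjustment. Mitochondrially encoded mRNAs took 0.0310% of the counts in Tesa-inj and 0.0126% in Vehicle-inj, but 0.00654% in Tesa-inj without KG8-12.

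KG8-12 stood apart from the 13 other libraries in the genes of many functions. After scaling by TMM, which sets most genes level across libraries, it was the highest library for 603 of the 2262 mRNAs and lincRNAs tested (26.7%), ahead of KG8-03 with 334. For 123 of them its level was over 4 times that of every other library, and no other library exceeded the rest by that much for any gene. These genes included complement C3, the lipoprotein receptor Lrp1, the nuclear RNA Malat1 and mt-Co1 of the mitochondrial genome, while Plb1, Chd5 and Hydin, 3 of the RNAs with the highest CPM in their functional lists, were lowest in this library. Results are therefore given with and without KG8-12.

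The quasi-likelihood test of edgeR called no gene, mRNA or lincRNA, at an adjusted p under 0.05, neither among 2262 genes with all 14 libraries (0%) nor among 2352 without KG8-12 (0%). Before adjustment, p was under 0.05 for 130 genes (5.75%) with all libraries, 112 higher (4.95%) and 18 lower (0.796%) in Tesa-inj. Without KG8-12 there were 75 (3.19%), 29 higher (1.23%) and 46 lower (1.96%), a balance that turned to 45 higher and 34 lower with the size factors of DESeq2 in edgeR and to 46 and 40 with KG8-14 left out as well. The 36 genes in both sets are 27.7% of the first and 48.0% of the second, with 18 higher and 18 lower. KG8-12 was the highest library for 107 of the 130 genes. The log2 fold change was above 0 for 1253 genes (55.4%) with all libraries and 1235 (52.5%) without KG8-12, with medians of 0.03 and 0.01. DESeq2 and limma voom called 0 genes in both settings, with 109 and 134 genes at an unadjusted p under 0.05 with all libraries and 77 and 120 without KG8-12, while the exact test of edgeR called 12 and 3. With all libraries these were Abca1, C3, C4b, Lrp1, mt-Cytb, mt-Nd1, mt-Nd4, mt-Nd5, 3 transcripts of the RP23-8J15 clone and RP24-13G16.1, and without KG8-12 mt-Cytb, mt-Nd4 and RP24-13G16.1. Scaled by library totals, the median of all genes moved to -1.03 with 14 libraries and -0.87 without KG8-12, and with 14 libraries 37 genes had an unadjusted p under 0.05, 5 higher and 32 lower. Limma voom gave 47 higher and 87 lower of its 134.

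**Figure D2:**
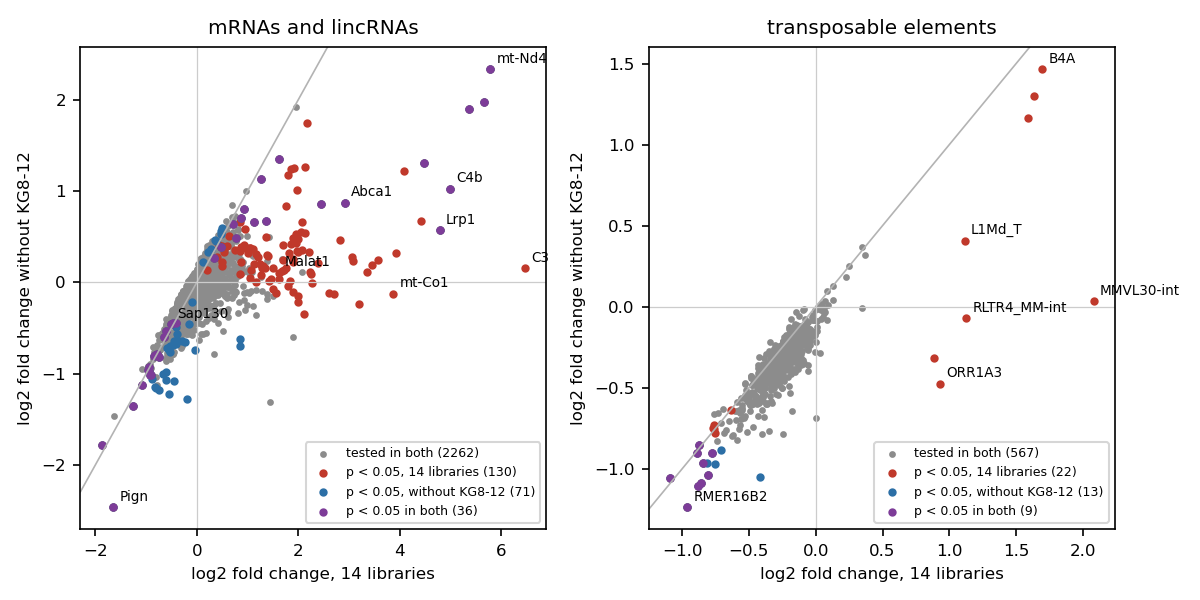
Log2 fold change of Tesa-inj over Vehicle-inj with all 14 libraries (x axis) against that without KG8-12 (y axis) for mRNAs and lincRNAs (left) and transposable elements (right), with equality as the diagonal and colours for an unadjusted p under 0.05 in either or both comparisons. Genes such as C3 (6.47 and 0.15) and mt-Co1 (3.87 and -0.12) lie far below the diagonal, while Sap130 (-0.51 and -0.45) and RMER16B2 (-0.96 and -1.24) lie close to it.

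The RNAs that identify late spermatids and sperm overlapped in level between the groups. Of 20 such markers 17 were in the table, led in CPM by the protamine gene Prm2, and their summed level was 660.1 to 1213 CPM in the 6 other Tesa-inj libraries, 544 in KG8-12 and 443 to 1106 in Vehicle-inj. None of the 17 had an unadjusted p under 0.05 in edgeR's test, beside 5.75% of all genes with all libraries and 3.19% without KG8-12. Their median log2 fold change was 0.09 with all libraries and 0.14 without KG8-12, beside 0.03 and 0.01 over all genes. Prm2 ran from 108 to 244 CPM in those 6 Tesa-inj libraries (median 152), was 100.4 in KG8-12 and ran from 69.7 to 209 in Vehicle-inj (median 177), with log2 fold changes of -0.05 (standard error 0.25) and 0.01 (standard error 0.23) without KG8-12. The lowest Vehicle-inj library for the marker sum was KG8-13, where Tcp11, a gene of sperm motility, had 38.4 CPM against at least 114.5 in the others.

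Genes that package sperm chromatin also overlapped between the groups. Of 29 genes listed 10 were tested, 1 of them, H2afb1, with an unadjusted p under 0.05 in both comparisons (5.75% and 3.19% over all genes), and the medians were 0.12 and 0.15. H2afb1, a short H2A variant of spermatids, ran from 2.33 to 3.96 CPM in Tesa-inj without KG8-12 (median 3.33), was 4.35 in KG8-12 and ran from 1.83 to 2.91 in Vehicle-inj (median 2.43). The log2 fold changes of H2afb1 were 0.47 (standard error 0.19) and, without KG8-12, 0.39 (standard error 0.18), and 5 of 7 Tesa-inj libraries exceeded all Vehicle-inj libraries, but none when scaled by library totals. Chd5, a chromatin remodeller needed for the exchange of histones, had 294.5 to 377 CPM in Tesa-inj without KG8-12 (median 325) and 252 to 406 in Vehicle-inj (median 337), against 129 in KG8-12.

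Genes of the sperm tail, like most genes, had no small p-values apart from Kif27. For outer dense fibres and fibrous sheath, 22 of 37 listed genes were tested and none had an unadjusted p under 0.05 in either comparison of edgeR (medians 0.05 and 0.06). For axoneme and cilium, 37 of 91 were tested, with medians of -0.01 in both comparisons. Kif27, a kinesin of motile cilia, was the single gene with an unadjusted p under 0.05, beside 5.75% and 3.19% of all genes. Kif27 ran from 1.16 to 6.13 CPM in Tesa-inj without KG8-12 (median 3.10), was 7.11 in KG8-12 and ran from 0.869 to 3.42 in Vehicle-inj (median 2.43), with log2 fold changes of 0.87 (standard error 0.34) and, without KG8-12, 0.71 (standard error 0.32). The groups overlapped, and with library totals its log2 fold change was -0.20, against a median of -1.03 over all genes. Hydin, a protein of the central pair of microtubules, had 159.5 to 200.5 CPM in Tesa-inj without KG8-12 and 159 to 202 in Vehicle-inj, against 90.1 in KG8-12. The summed level of the axoneme genes was 529 CPM in KG8-12, below the 643 to 826 CPM of all other libraries.

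Tests covered acrosome genes (12 of 68, or 13 without KG8-12), sperm ion channels (10 of 40) and regulators of transcription in spermiogenesis (11 of 43). These lists held no gene with an unadjusted p under 0.05 in either comparison of edgeR. Their medians were -0.06, -0.07 and 0.09 with all libraries and -0.04, -0.10 and 0.04 without KG8-12. Ace, whose germ-cell form is carried on the sperm surface, was lowest in KG8-12 with 27.3 CPM and had 52.5 to 69.8 in the other Tesa-inj libraries and 44.0 to 63.4 in Vehicle-inj. Kcnu1, the potassium channel of sperm, differed by less than its error, with 15.8 to 20.4 CPM in Tesa-inj without KG8-12 and 15.5 to 21.5 in Vehicle-inj. Among 19 of 72 genes of germ-cell RNA regulation, Ago2, an Argonaute protein of small RNA pathways, was higher by 1.11 on the log2 scale (standard error 0.50) with all libraries and by 0.37 (standard error 0.31) without KG8-12, where no gene of the list had an unadjusted p under 0.05. Glycolysis and energy supply gave 2 such genes of 17 tested, among them Cs, the citrate synthase, and none without KG8-12, beside 5.75% and 3.19% over all genes. Hk1, which feeds glucose into glycolysis, had log2 fold changes of -0.08 and 0.01.

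Of 35 genes for PPARs, their RXR partners and coregulators, 12 were in the table and tested. None had an unadjusted p under 0.05 with or without KG8-12 in edgeR's test, beside 5.75% and 3.19% of all genes. The medians were 0.11 and 0.06, beside 0.03 and 0.01 over all genes. Ppara, Ppard and Pparg, the receptors themselves, were not in the table, and Rxra was. Rxra ran from 0 to 3.50 CPM in Tesa-inj without KG8-12, was 11.9 in KG8-12 and ran from 0 to 2.94 in Vehicle-inj.

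Genes of lipid synthesis, storage and sterols include known targets of PPARs. Of 125 listed genes 24 were in the table, and 6 of 21 tested had an unadjusted p under 0.05 with all libraries, all of them higher in Tesa-inj, against 3 of 23 without KG8-12, also all higher, beside 5.75% and 3.19% of all genes, and none passed after adjustment by edgeR's quasi-likelihood test. The median log2 fold change was 0.24 with all libraries and 0.04 without KG8-12, beside 0.03 and 0.01 over all genes. Lrp1, an endocytic receptor for lipoproteins, ran from 2.02 to 6.24 CPM in Tesa-inj without KG8-12 (median 3.12), was 466 in KG8-12 and ran from 1.65 to 3.20 in Vehicle-inj (median 2.50). Its log2 fold change was 4.78 (standard error 1.30), or 0.57 (standard error 0.27) without KG8-12. Elovl5, which elongates polyunsaturated fatty acids, ran from 1.24 to 3.49 CPM in those 6 libraries (median 2.05) and from 1.39 to 3.72 in Vehicle-inj (median 2.03), and was 88.5 in KG8-12. Of these 6 libraries 5 lay within the range of Vehicle-inj and 1 below it, and the log2 fold change was 2.70 with KG8-12 and -0.12 without it. Dgat2, which makes triglycerides, likewise had 120.5 CPM in KG8-12, 9.15 to 16.3 in the other Tesa-inj libraries and 10.8 to 13.8 in Vehicle-inj (log2 fold changes 1.16 and 0.01). Plb1, a phospholipase and the gene of the list with the highest CPM, was lowest in KG8-12, with 431 CPM against 750 to 922 in the other Tesa-inj libraries and 712.5 to 935 in Vehicle-inj.

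Abca1 and Dhcr7, both genes of cholesterol handling, had positive log2 fold changes without KG8-12 that did not pass adjustment (adjusted p = 0.999 by edgeR for both, with 5 of 6 and 6 of 6 libraries above Vehicle-inj, at 0.87 and 0.67). Abca1 (chromosome 4, 53030789 to 53159988 in GRCm38) exports cholesterol to lipoproteins, and its transcription is known to respond to lipid-sensing nuclear receptors. It ran from 2.12 to 6.02 CPM in Tesa-inj without KG8-12 (median 3.81), was 86.6 in KG8-12 and ran from 1.51 to 2.67 in Vehicle-inj (median 1.87). Of the Tesa-inj libraries 6 of 7 lay above every Vehicle-inj library and the one within their range was KG8-03, while with library totals 2 of 7 did. The log2 difference of Abca1 was 2.92 (standard error 0.81), with an adjusted p of 0.512 by the quasi-likelihood test of edgeR and 6 of 7 libraries on that side, while edgeR's exact test called it, or 0.87 (standard error 0.25) without KG8-12, where the unadjusted p was 0.00379. With library totals and without KG8-12 it was 0.02, against a median of -0.87 over all genes. Dhcr7, an enzyme of the last steps of cholesterol synthesis, was tested only without KG8-12. It ran from 1.78 to 2.97 CPM in the 6 Tesa-inj libraries (median 2.08) and from 0.659 to 1.62 in Vehicle-inj (median 1.49), so that the groups did not overlap, a separation seen in 2 of the 2352 genes (0.085%). Dhcr7 had 2.33 CPM in KG8-02, where the median feature had 5 counts, so the separation rests on very few reads there. The log2 fold change of Dhcr7 was 0.67 (standard error 0.24, unadjusted p = 0.0135), KG8-12 held 1 count (0.395 CPM), and with library totals none of the 6 libraries lay above all Vehicle-inj libraries and the log2 fold change was -0.42 beside the same median of -0.87. The other gene of the 2, Gatc, a subunit of the mitochondrial enzyme that makes glutaminyl-tRNA, was the single one of 2262 (0.0442%) that did not overlap with all 14 libraries, and is named after its values were seen. It had 2.44 to 3.95 CPM in Tesa-inj (median 2.72) and 1.85 to 2.41 in Vehicle-inj (median 2.20), with log2 fold changes of 0.41 (standard error 0.17) and, without KG8-12, 0.28 (standard error 0.16). Scaled by library totals, Gatc had 0 of 7 Tesa-inj libraries above all of Vehicle-inj and 2 below. At these levels KG8-02 held very few reads of Gatc as well.

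Some genes of fatty acid oxidation, the process most tied to PPARα, were high in KG8-12, Acad11 and Acsl1 among them. Of 72 listed genes 11 were tested, with 1 at an unadjusted p under 0.05 with all libraries and none without KG8-12, beside 5.75% and 3.19% of all genes (medians 0.07 and 0.00). Acad11, which starts the breakdown of long-chain acyl-CoA, ran from 4.45 to 6.13 CPM in Tesa-inj without KG8-12 (median 5.24) and from 4.40 to 6.56 in Vehicle-inj (median 5.80), and was 87.3 in KG8-12. Its log2 fold change was 1.56 (standard error 0.67), or -0.11 (standard error 0.14) without KG8-12. Acsl1, which activates fatty acids, had 283 CPM in KG8-12, 96.5 to 144 in the other Tesa-inj libraries (median 109) and 75.8 to 123 in Vehicle-inj (median 106), with log2 fold changes of 0.42 and 0.12. The summed level of the 12 genes in the table was 629 CPM in KG8-12, 170.0 to 231 in the other Tesa-inj libraries and 144 to 215 in Vehicle-inj.

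The complement genes C3 and C4b were, with Lrp1, the nuclear protein-coding genes in which KG8-12 exceeded the next library most. C3 (chromosome 17, 57203967 to 57228136), on which all complement pathways converge, ran from 1.91 to 9.31 CPM in Tesa-inj without KG8-12 (median 2.95), was 1654 in KG8-12 and ran from 1.47 to 5.10 in Vehicle-inj (median 2.31). Outside KG8-12 its groups overlapped, and the log2 fold change was 6.47 (standard error 1.73) with it and 0.15 (standard error 0.37) without it. C4b (chromosome 17, 34728139 to 34743902), of the classical pathway, ran from 1.49 to 7.20 CPM in Tesa-inj without KG8-12 (median 3.602), was 429.6 in KG8-12 and ran from 1.05 to 2.78 in Vehicle-inj (median 1.89). For C4b 6 of 7 Tesa-inj libraries lay above every Vehicle-inj library, or 2 with library totals, and the log2 fold change of 1.03 (standard error 0.32) without KG8-12 compares with 4.99 (standard error 1.29) with it.

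Some genes of the nucleus, of protein turnover and of protein folding were also high in KG8-12. The 19 splicing factors, CLK kinases and nuclear RNAs in the table summed to 1523 CPM in KG8-12, 219 to 333 in the other Tesa-inj libraries and 212 to 277 in Vehicle-inj, and 3 of 16 tested had an unadjusted p under 0.05 with it and none without it (all genes: 5.75% and 3.19%). Malat1, a long RNA of nuclear speckles, ran from 49.6 to 115 CPM in Tesa-inj without KG8-12 (median 66.7), was 989 in KG8-12 and ran from 50.7 to 79.8 in Vehicle-inj (median 60.4). Its log2 fold change was 1.62 (standard error 0.63), or 0.11 (standard error 0.17) without KG8-12. Neat1, the RNA around which paraspeckles form, had log2 fold changes of 2.05 and 0.55 (standard errors 0.69 and 0.29), and Snrnp200, a helicase of the spliceosome, 1.30 and 0.18.

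Of a list of ubiquitin and proteasome genes, members of the ubiquitin system were in the table. The only proteasome subunit listed, Psma8, was not, and other subunits were not looked up. The listed genes in the table summed to 1706 CPM in KG8-12 and to 937 to 1161 in all other libraries. With KG8-12, 3 of 27 had an unadjusted p under 0.05 and none did without it, where all genes had 5.75% and 3.19%. Ubb, which encodes a chain of ubiquitin units, ran from 3.40 to 18.6 CPM in Tesa-inj without KG8-12 (median 8.85), was 45.45 in KG8-12 and ran from 3.72 to 11.4 in Vehicle-inj (median 5.56), with log2 fold changes of 1.05 and 0.38. For Ubb 3 of 7 Tesa-inj libraries lay above and 1 below all of Vehicle-inj. Herc1, a ubiquitin ligase and the gene of the list with the highest CPM, was not high there, with 308 CPM in KG8-12 and 334.5 to 434 in all other libraries. Of 15 heat shock and antioxidant genes 2 had an unadjusted p under 0.05 with all libraries, both higher, and 1 without KG8-12, which was lower (medians 0.10 and 0.03). Gstm5, a glutathione transferase and the gene with the highest CPM there, had 47.4 CPM in KG8-12, 51.9 to 76.8 in the other Tesa-inj libraries and 27.4 to 83.1 in Vehicle-inj. Hsp90ab1, a constitutive chaperone, had 73.9 CPM in KG8-12 and 0 to 4.59 in all other libraries. Hsp90aa1, the stress-inducible form, had 28.9 CPM in KG8-12, 0 to 2.57 in the other Tesa-inj libraries (median 1.72) and 1.04 to 4.35 in Vehicle-inj (median 2.83). Its direction turned with that library, from 0.85 (standard error 0.70) with it to -0.70 (standard error 0.31) without it on the log2 scale.

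The mitochondrially encoded mRNAs, of which 5 of 13 were in the table, summed to 5618 CPM in KG8-12, 37.9 to 214 in the other Tesa-inj libraries and 21.2 to 76.0 in Vehicle-inj. All 5 had an unadjusted p under 0.05 with KG8-12 (median log2 fold change 5.37) and 3 without it (median 1.89), beside 5.75% and 3.19% of all genes, whose medians were 0.03 and 0.01. mt-Co1, a subunit of cytochrome c oxidase, ran from 17.2 to 42.2 CPM in Tesa-inj without KG8-12 (median 35.6), was 3417 in KG8-12 and ran from 15.1 to 61.0 in Vehicle-inj (median 31.7). In mt-Nd1, a subunit of complex I, KG8-12 had 491 CPM and KG8-02 had 38.4, while the lowest Tesa-inj library had 1.72 and Vehicle-inj ran from 0.704 to 3.72. Without KG8-12 the log2 fold change of mt-Nd1 was 1.89 (standard error 0.69) after TMM, 1.03 with KG8-02 left out as well, and -0.25 with library totals, against a median of -0.87 over all genes. Leaving out KG8-02 as well took mt-Cytb from 1.98 to 1.18 and mt-Nd4 from 2.34 to 1.33.

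**Figure D3:**
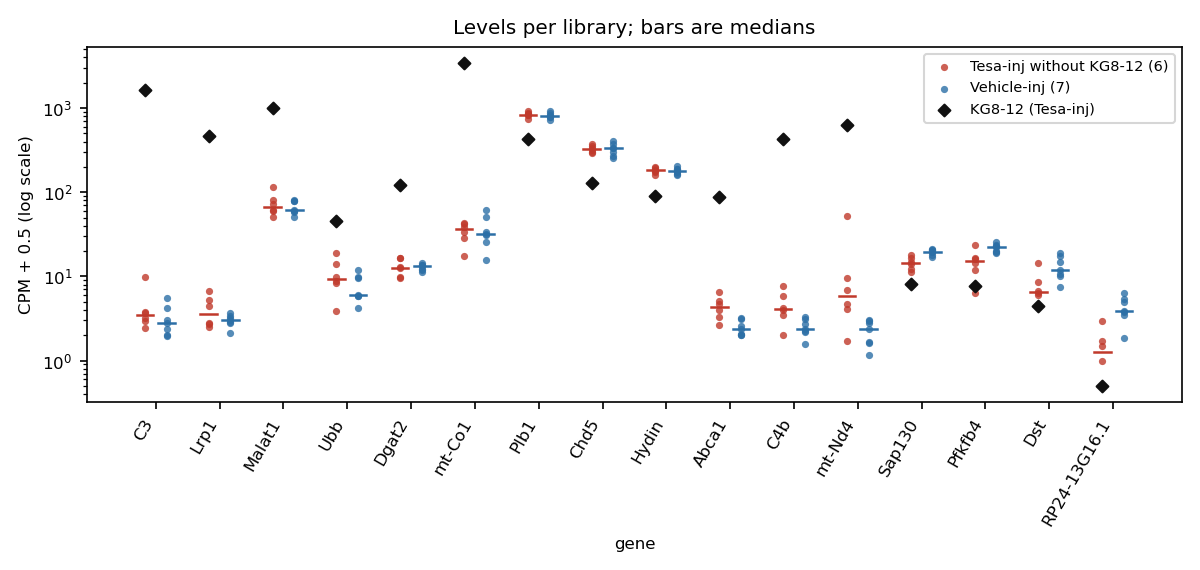
CPM + 0.5 (log scale, y axis) of 16 genes in each library, with Tesa-inj without KG8-12 in red, Vehicle-inj in blue, KG8-12 as black diamonds and bars at the medians of the red and blue points. KG8-12 lies above all other libraries for C3 (1654 CPM) and Malat1 (989 CPM) and below them for Plb1 (431 CPM), and most red points lie below the blue ones for Sap130.

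Markers of other tissues were mostly missing from the table, and their part in the levels of KG8-12 was not tested. In KG8-14, 3079 of the 3082 listed features had over 20 counts, so RNAs with few reads may not be listed. Whether a missing marker had reads in KG8-12 can therefore not be told. Of 73 markers of epididymal epithelium and 20 of Sertoli and Leydig cells 0 were in the table. Of 30 leukocyte markers only H2-Eb1 was, at 3.16 CPM in KG8-12 and 4.75 to 8.25 in all other libraries, while Ptprc, Cd68 and Lyz2 were not. Of 14 blood markers only Hemgn was, at 2.77 CPM in KG8-12 and 0 to 3.68 in the others, while the haemoglobin genes were not. Of 34 stroma and smooth muscle markers Vwf and Hspg2 were, led by Vwf and summing to 43.9 CPM in KG8-12 and 22.1 to 72.5 in the others. Hspg2, the rest of that sum, was highest in KG8-12, where Vwf made up 29.2 of the 43.9 CPM. In KG8-10, the next highest for Hspg2, Vwf made up 52.8 of 55.6 CPM. Of 44 liver and plasma protein markers C3 and C4b were, led by C3 and summing to 2083 CPM in KG8-12, 3.40 to 12.8 in the other Tesa-inj libraries and 2.90 to 7.88 in Vehicle-inj, while Alb, Ttr and Apoa1 were not. Of 20 adipocyte markers Acsl1, Dgat2, Acaca and Lipe were, led by Acsl1 and summing to 464 CPM in KG8-12 and 121 to 203 in the others, while Adipoq, Fabp4 and Plin1 were not.

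A smaller set of genes was lower in Tesa-inj by like amounts with and without KG8-12. Sap130, a subunit of the Sin3 histone deacetylase complex, ran from 10.8 to 17.6 CPM in Tesa-inj without KG8-12 (median 14.0), was 7.51 in KG8-12 and ran from 16.5 to 20.5 in Vehicle-inj (median 19.2). Its level in 6 of 7 Tesa-inj libraries was under the lowest of Vehicle-inj (in 4 with library totals), at log2 fold changes of -0.51 (standard error 0.16) and, without KG8-12, -0.45 (standard error 0.13). Pfkfb4 (chromosome 9, 108988272 to 109032236), which sets the level of the glycolytic activator fructose 2,6-bisphosphate and has a testis form, ran from 5.82 to 23.4 CPM in Tesa-inj without KG8-12 (median 14.7), was 7.11 in KG8-12 and ran from 18.6 to 24.9 in Vehicle-inj (median 21.7). Again 6 of 7 Tesa-inj libraries, or 4 when scaled by totals, were under the lowest of Vehicle-inj, with log2 fold changes of -0.61 (standard error 0.23) and -0.53 (standard error 0.18). Dst (chromosome 1, 33907888 to 34308662), a large linker between cytoskeletal filaments, ran from 3.96 to 14.0 CPM in Tesa-inj without KG8-12 (median 5.98), was 3.95 in KG8-12 and ran from 7.02 to 18.6 in Vehicle-inj (median 11.3). Its groups overlapped in 2 of the 7 Tesa-inj libraries, and the log2 fold change was -0.97 (standard error 0.28), or -0.96 (standard error 0.27) without KG8-12. After adjustment none of these genes passed 0.05 in edgeR.

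Pign (chromosome 1, 105518421 to 105663741), an enzyme of GPI anchor synthesis, was lower in most Tesa-inj libraries. It ran from 0 to 2.97 CPM without KG8-12 (median 0.112), was 5.53 in KG8-12 and ran from 1.66 to 5.48 in Vehicle-inj (median 3.22). Below every Vehicle-inj library lay 5 of 7 Tesa-inj libraries, also with library totals. KG8-12 lay above every Vehicle-inj library after TMM, but not with library totals. Leaving KG8-12 out moved the log2 fold change from -1.64 (standard error 0.76) to -2.46 (standard error 0.68), with counts of 0 to 130 per library.

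For lincRNAs, pseudogenes and unnamed loci, small p-values were mostly on the lower side once KG8-12 was left out. Of 425 tested, 22 had an unadjusted p under 0.05 with all libraries, 11 in each direction, and 31 of 449 without KG8-12, of which 29 were lower in Tesa-inj, beside shares of 5.75% and 3.19% over all genes. For nuclear protein-coding genes the counts were 96 higher and 7 lower of 1831 with all libraries, and 24 higher and 17 lower of 1897 without KG8-12. RP24-13G16.1 ran from 0 to 2.44 CPM in Tesa-inj without KG8-12 (median 0.749), was 0 in KG8-12 and ran from 1.34 to 5.91 in Vehicle-inj (median 3.34). In 6 of 7 Tesa-inj libraries (5 when scaled by totals) this locus was under the lowest of Vehicle-inj, with log2 fold changes of -1.87 (standard error 0.52) and -1.78 (standard error 0.48), and the exact test of edgeR called it with and without KG8-12. RP24-152H15.4 and RP23-61O10.1 had -1.25 and -0.91, or -1.36 and -1.01 without KG8-12, from 0 to 114 and 2 to 243 counts per library. RP23-330D3.3, at 13.0 CPM in KG8-12 and 0 to 3.82 in all other libraries, went from -0.20 (standard error 0.59) to -1.28 (standard error 0.35) without KG8-12. RP23-8J15.4, higher in Tesa-inj, ran from 7.93 to 69.8 CPM without KG8-12 (median 13.6), was 1071 in KG8-12 and ran from 2.81 to 13.6 in Vehicle-inj (median 6.96). The log2 difference went from 4.48 (standard error 1.15) to 1.31 (standard error 0.47) without KG8-12, or to -0.61 with library totals (median of all genes -0.87). With 1 more library left out, the value of 1.31 moved between 0.75 and 1.53.

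Transposable elements were tested apart from genes, 567 with all libraries and 577 without KG8-12. MMVL30-int, the internal part of the VL30 retroelement, rose (adjusted p = 7.12e-08 by edgeR, 1 element or 0.176% of those tested), by 2.08 on the log2 scale (standard error 0.32), and the exact test called it among 6 elements. Limma voom called 4 elements, MMVL30-int not among them, and DESeq2 0 (70 at an unadjusted p under 0.05). The call of MMVL30-int was also lost in edgeR with TMM over the tested elements alone, in one fit of genes and elements, with a term for libraries 11 to 14, and in libraries 1 to 10 alone, with 64, 17, 21 and 8 elements at an unadjusted p under 0.05. It ran from 21.5 to 33.98 CPM in Tesa-inj without KG8-12 (median 31.2), was 654 in KG8-12 and ran from 19.8 to 35.2 in Vehicle-inj (median 29.9), so that 1 of 7 Tesa-inj libraries lay above Vehicle-inj. Without KG8-12 its log2 fold change was 0.03 (standard error 0.35) and no element passed in that test (0%), with 0 also in the exact test and DESeq2, at 13, 17 and 49 elements with an unadjusted p under 0.05, and 3 called by limma voom (B4A, L1Md_F2 and L1Md_F3). With all libraries 22 elements (3.88%) had an unadjusted p under 0.05, 8 higher (1.41%) and 14 lower (2.47%), and without KG8-12 13 (2.25%) did, 0 higher (0%) and 13 lower (2.25%). The split depended on the scaling. TMM over the tested elements alone gave 36 higher and 28 lower with all libraries and 29 and 26 without KG8-12. DESeq2, whose size factors also came from the tested elements alone, gave 45 and 25, then 27 and 22. With DESeq2 size factors over all features, in edgeR, the split was 8 and 14, then 1 and 14. With TMM over all features, leaving out KG8-04 besides KG8-12 gave 56 elements, all lower. The 9 elements in both sets, all lower, are 40.9% of the first and 69.2% of the second.

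With TMM over all features most element groups lay slightly below 0, and the young LINE families above it. The log2 fold change was above 0 for 36 elements (6.35%) with all libraries and 17 (2.95%) without KG8-12, with medians of -0.25 and -0.34. With TMM over the tested elements alone 302 of 567 and 307 of 577 lay above 0, and with DESeq2, also scaled on these elements alone, 310 and 313. Young L1Md families, which include the LINE elements still able to move, had a median of 0.62 over 6 families, or 0.27 without KG8-12, and by edgeR's quasi-likelihood test 3 of them had an unadjusted p under 0.05 with all libraries and none without KG8-12, beside 3.88% and 2.25% of all elements, while limma voom called L1Md_F2 and L1Md_F3 without KG8-12. L1Md_F2, the most abundant of them, had 115401 CPM in KG8-02 and 1771 in KG8-14. These libraries had the highest and lowest share of Rn18s-rs5 (74.8% and 8.64%). The SINE family B4A had 243729 and 1611 CPM there. A link to the remaining rRNA was not tested. With library totals and without KG8-12 the log2 fold change of L1Md_F2 was -0.034. SINE families had medians of -0.11 and -0.22, older LINE families -0.16 and -0.23, MT, ORR1 and MERVL families -0.31 and -0.38, RLTR and MLTR families -0.32 and -0.38, and IAP, ETn and other ERVK families -0.35 and -0.38. The medians also moved with the scaling. On TMM over the elements alone, those with all libraries were 0.84 for young L1Md, 0.16 for SINE, 0.06 for older LINE, -0.07 for MT, ORR1 and MERVL and -0.03 for RLTR and MLTR families. With library totals edgeR called 540 elements, all lower, at a median of -1.74 over all elements, but 0 without KG8-12 (456 at an unadjusted p under 0.05, median -1.63). With all libraries so scaled, young L1Md families lay 0.93 above that median of -1.74, SINE families 0.10 above and MT, ORR1 and MERVL families at -0.07 relative to it.

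**Figure D4:**
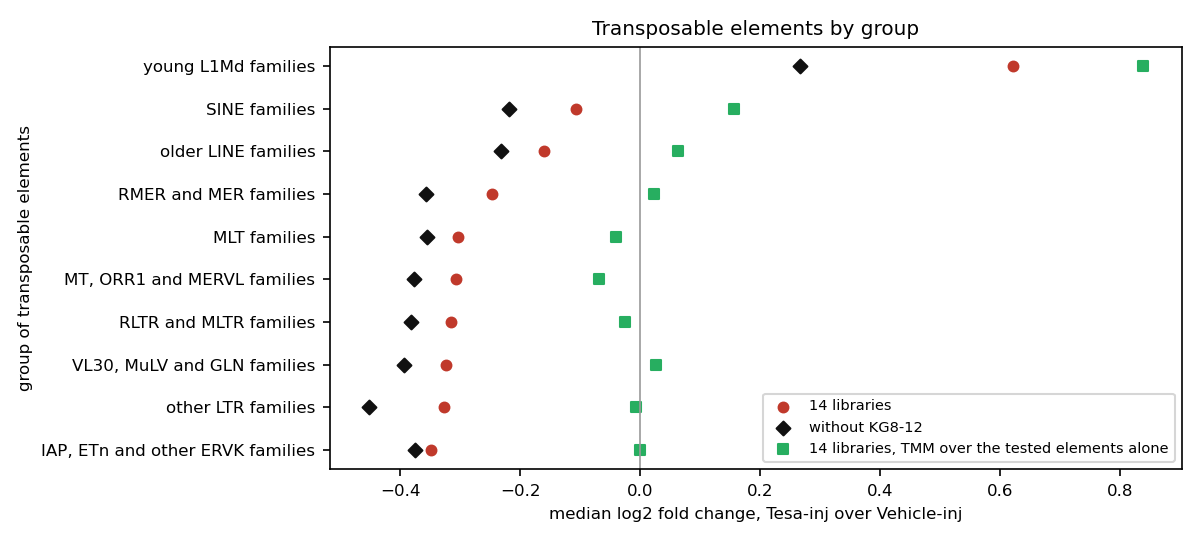
Median log2 fold change of Tesa-inj over Vehicle-inj (x axis) in 10 groups of transposable elements (y axis), with all 14 libraries (red circles), without KG8-12 (black diamonds) and with TMM over the tested elements alone (green squares). Young L1Md families lie above 0 in all 3 (0.62, 0.27 and 0.84), while the LTR groups lie between -0.45 and 0.03, and scaling by library totals put all groups below 0.

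LTR families made up 415 of the 567 elements tested, and 18 of the 22 small p-values fell among them. RLTR and MLTR families held 7 of 162 with an unadjusted p under 0.05 with all libraries, 6 of them lower, and 7 of 167 without KG8-12, all lower, beside 3.88% and 2.25% of all elements. RMER16B2 ran from 0.446 to 2.55 CPM in Tesa-inj without KG8-12 (median 1.75), was 3.95 in KG8-12 and ran from 2.41 to 4.61 in Vehicle-inj (median 3.24). Below every Vehicle-inj library lay 5 of 7 Tesa-inj libraries (6 when scaled by totals), and the log2 fold change was -0.96 (standard error 0.41), or -1.24 (standard error 0.45, adjusted p = 0.707 in edgeR's test) without KG8-12, lower in 5 of 6 libraries. With TMM over the tested elements alone the value without KG8-12 was -0.66. RLTR13B3, RLTR13D3A1 and MER67D had -1.10, -1.05 and -1.09 without KG8-12, and -0.88, -0.42 and -0.86 with it.

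Few retroelements in KG8-12 exceeded every other library over 4 times. Besides MMVL30-int they included RLTR4_MM-int, of a murine leukaemia virus family, with 172 CPM in KG8-12 against 12.2 to 30.3 in the other Tesa-inj libraries and 11.1 to 26.6 in Vehicle-inj, and log2 fold changes of 1.12 and -0.07. KG8-12 was also the highest library for ORR1A3 and L1Md_T, but by less than 4 times the next. ORR1A3, a MaLR element, had 870 CPM in KG8-12, 23.9 to 104 in the other Tesa-inj libraries and 56.3 to 270 in Vehicle-inj, where KG8-13 was highest, and its log2 fold change went from 0.93 to -0.47. L1Md_T, a young LINE family, had 4392 CPM in KG8-12, 295 to 1811 in the other Tesa-inj libraries (median 572) and 427 to 904 in Vehicle-inj (median 518), with log2 fold changes of 1.11 (standard error 0.38) and 0.41 (standard error 0.40). KG8-12 was the highest library for 74 of the 567 elements, fewer than KG8-02 with 203, and exceeded every other library over 4 times for 3.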

How the data were processed

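The authors trimmed single-end reads with Trim Galore 1.16, quantified them with Salmon 0.11.2 (strand-aware, GENCODE mouse transcripts, piRNA precursors and repeat families, GRCm38) and deposited estimated counts per gene or family, not normalized. The estimated counts were rounded to whole numbers. Classes came from RefSeq biotypes (GRCm38.p6, 2000 of 2458 mRNA and lincRNA names matched) and repeat names. A feature was tested where 6 libraries (5 without KG8-12, 80% of the smaller group) or more had over 20 counts, by edgeR (4.0.16, R 4.3.3, quasi-likelihood), with TMM over all 3082 features and Benjamini-Hochberg adjustment within genes and within elements. Standard errors are the absolute log2 fold change divided by the square root of edgeR's F statistic. CPM values in the text are scaled by TMM over 14 libraries and not corrected for length. The authors' text gives 6 Tesa-inj samples without naming which, so 7 and 6 were analysed. Shares were compared by exact permutation tests. They were also taken of the counts outside the 5 most abundant features. The tests of genes and elements were repeated with DESeq2 1.42.0, its size factors in edgeR, edgeR's exact test, voom with quality weights of limma 3.58.1, library totals, TMM within a class, no count filter, one fit over all features, a term for libraries 11 to 14, libraries 1 to 10 alone, KG8-02 left out as well as KG8-12, and each library left out in turn. DESeq2 itself took its size factors from the tested features of a class, while those used in edgeR came from all features. RNAs that the table does not list were not analysed here. Further software: Python 3.11.15, matplotlib 3.10.9 for plots, data.table (1.17.8) for reading.

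Members and lists (15 functional, 8 of markers) were chosen with earlier results of these data known. Named were, in each of both comparisons, the 8 genes with a symbol, 4 loci and 5 elements with the smallest p, the tested member with the highest CPM of each list and its members with an unadjusted p under 0.05 (at most 3 per list and comparison), the 5 features with most counts, the mitochondrially encoded mRNAs and the element of each group with the highest CPM. From this set, those that describe a class or function are given, and some members are not reported. Rxra and Gatc were chosen after their values were seen.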

Additional observations from a re-analysis of the deposited data

Results flagged for a closer look

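Each library was compared with the others of its group by the gap to the nearest library relative to the range of the group (Dixon's ratio above its 95% critical value for 7 libraries), for CPM on a log2 scale with a pseudocount of 0.5. Of 162 groups of values examined 39 had a library apart from the rest, where chance alone flags about 1 in 20 independent groups. Most groups are of named features, many of them chosen for a small p in the comparison that includes KG8-12, so the number for KG8-12 is partly set by that choice. KG8-12 was that library in 23 of them (18 highest, 5 lowest), KG8-11 in 6, KG8-14 in 5, KG8-02 and KG8-13 in 2 each and KG8-07 in 1. The range of the other libraries of the group stands in brackets below, and no cause was tested.

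KG8-12 was apart as the highest Tesa-inj library in the CPM of Abca1 86.6 (2.12 to 6.02), Acad11 87.3 (4.45 to 6.13), Acsl1 283 (96.5 to 144), C3 1654 (1.91 to 9.31), C4b 429.6 (1.49 to 7.20), Cs 21.7 (4.66 to 7.42), Dgat2 121 (9.15 to 16.3), Elovl5 88.5 (1.24 to 3.49), Lrp1 466 (2.02 to 6.24), MMVL30-int 654 (21.5 to 33.98), Malat1 989 (49.6 to 115), Neat1 178 (7.01 to 24.8), ORR1A3 869.9 (23.9 to 104), RLTR4_MM-int 172 (12.2 to 30.3), Rn7s1 25050.0 (10410.0 to 12790.0), Snrnp200 39.1 (3.61 to 4.70), mt-Co1 3417 (17.2 to 42.2). Its share of mitochondrially encoded mRNAs was also highest, at 0.178% of counts (0.00210% to 0.0235%). It was apart as the lowest in the CPM of Ace 27.3 (52.5 to 69.8), Chd5 129 (295 to 377), Dhcr7 0.395 (1.78 to 2.97), Hydin 90.1 (159 to 201), Plb1 431 (749.7 to 922). These genes range over complement, lipid metabolism, nuclear RNA, sperm chromatin and the axoneme.

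In percent of counts, KG8-11 of Tesa-inj was apart as the highest in LTR 2.22 (0.117 to 0.846), lincRNAs, pseudogenes and unnamed loci 12.3 (0.337 to 2.63), nuclear protein-coding genes 20.7 (0.345 to 4.53), structural and small RNAs 8.36 (0.156 to 1.60), and as the lowest in Rn18s-rs5 30.6 (58.8 to 74.8), Yam1 11.4 (19.3 to 22.5). KG8-14 of Vehicle-inj was likewise the highest in lincRNAs, pseudogenes and unnamed loci 20.3 (1.15 to 7.80), mitochondrially encoded mRNAs 0.0480 (0.00208 to 0.0145), nuclear protein-coding genes 33.2 (2.35 to 12.9), structural and small RNAs 15.8 (0.891 to 5.30), and the lowest in Rn18s-rs5 8.64 (44.0 to 64.3). KG8-07 was the highest of Vehicle-inj in SINE 6.16 (4.17 to 4.99).

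By CPM, KG8-02 was the lowest Tesa-inj library in Hemgn 0 (1.73 to 2.97), RP24-152H15.4 0 (1.18 to 2.72). KG8-13 of Vehicle-inj was the highest in ORR1A3 269 (56.3 to 85.4) and the lowest in Tcp11 38.4 (115 to 196).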

How the results depend on the processing

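These results rest on few counts for most genes, since 1.81% of the counts of KG8-02 and 7.12% of those of KG8-12 lay outside the 5 most abundant features. No paired analysis was possible because the library numbers are not shared between groups. Several CPM values come from fewer than 20 counts, and the scaling decides the side of many differences, large ones among them. Genes without a call stayed uncalled by DESeq2, limma voom, the 3 other scalings, no count filter and each library left out. The exact test called 12 genes with all libraries and 3 without KG8-12. The cause was not tested for any of the values below.

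With all libraries, the count of called transposable elements, 1 by edgeR's quasi-likelihood test, was 6 by the exact test, 4 by limma voom, 3 with no count filter and 540 (all lower) with library totals. It was 0 by DESeq2, with TMM over the tested elements, with one fit over all features, with the term for libraries 11 to 14 and in libraries 1 to 10 alone. Leaving out 1 library at a time gave 0 to 6 elements. Without KG8-12 limma voom called 3 elements and library totals 0.

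As a share of the counts outside the 5 most abundant features, Tesa-inj was higher in LINE elements (by 6.88 percentage points), all transposable elements (2.46) and structural and small RNAs (0.616), opposite to the share of all counts. For mitochondrially encoded mRNAs the difference was -0.00442 points in libraries 1 to 10 and ran from -0.00604 to 0.0243 points with 1 library left out.

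The following log2 fold changes had the other sign. With all libraries, by DESeq2 -0.13 Acad11, -0.14 Elovl5, -0.69 Hsp90aa1, -0.17 Hsp90ab1, 0.032 IAPEz-int, 0.19 L1_Mus3, -0.097 mt-Co1. By DESeq2 size factors in edgeR 0.00040 Herc1, 0.0085 Kcnu1. By TMM over the tested features of a class 0.021 IAPEz-int, 0.18 L1_Mus3, -0.0094 Smg1. By the exact test 0.0018 Kcnu1. By library totals -0.56 Acad11, -0.88 Acsl1, -0.36 Ago2, -0.88 Brwd1, -0.26 Cct2, -0.55 Cs, -0.69 Dgat2, -0.93 Gstm5, -0.87 H2-Eb1, -0.67 H2afb1, -1.08 Hsp90aa1, -0.082 Hsp90ab1, -0.20 Kif27, -0.087 L1Md_T, -0.12 MMVL30-int, -0.44 Malat1, -0.068 Neat1, -0.55 ORR1A3, -1.41 RLTR31D_MM, -0.83 RLTR4_MM-int, -0.88 Smg1, -0.43 Snrnp200, -0.80 Ubb. By limma voom 0.043 Ace, 0.015 Chd5, 0.050 Herc1, 0.016 Hk1, -0.49 Hsp90aa1, -0.023 Hsp90ab1, 0.030 Hydin, 0.0017 Kcnu1, 0.13 L1_Mus3, -0.0086 ORR1A3, 0.039 Plb1, -0.34 RP23-8J15.3, 0.15 Vwf, -0.074 mt-Co1. By libraries 1 to 10 alone -0.015 Acad11, 0.18 Ace, 0.070 Chd5, 0.041 Herc1, -0.66 Hsp90aa1, -0.41 Hsp90ab1, 0.064 Hydin, 0.0052 Kcnu1, 0.028 L1_Mus3, -0.0070 MMVL30-int, -0.12 ORR1A3, 0.056 Plb1, -0.072 RLTR4_MM-int, 0.036 Vwf, -0.24 mt-Co1.

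Without KG8-12, by DESeq2 0.0038 Chd5, 0.0043 Herc1, 0.0019 Hydin, 0.22 L1_Mus3, 0.0099 MLT1D, 0.081 ORR1A3, 0.47 RLTR4_MM-int, 0.0082 Smg1. By DESeq2 size factors in edgeR 0.031 Chd5, 0.038 Herc1, 0.034 Hydin, 0.042 Smg1. By TMM over the tested features of a class -0.00072 Dgat2, 0.22 L1_Mus3, 0.0049 MLT1D, 0.11 ORR1A3, 0.43 RLTR4_MM-int. By library totals -0.996 Ace, -0.78 Acsl1, -0.43 Ago2, -0.70 Brwd1, -0.93 C3, -0.39 Cct2, -0.53 Cs, -0.92 Dgat2, -0.42 Dhcr7, -0.75 Gstm5, -0.68 H2-Eb1, -0.52 H2afb1, -0.86 Hk1, -0.060 Kif27, -0.034 L1Md_F2, -0.049 L1Md_T, -0.043 Lrp1, -0.91 MMVL30-int, -0.80 Malat1, -0.44 Neat1, -0.86 Plb1, -0.72 Prm2, -1.28 RLTR31D_MM, -0.84 RP23-8J15.3, -0.61 RP23-8J15.4, -0.65 Snrnp200, -0.84 Ubb, -0.57 Vwf, -0.22 mt-Cytb, -0.25 mt-Nd1, -0.24 mt-Nd4, -0.68 mt-Nd5. By limma voom 0.025 Chd5, 0.034 Herc1, 0.023 Hydin, 0.017 L1_Mus3, -0.13 MMVL30-int, -0.020 Prm2, -0.49 RP23-8J15.3, 0.042 Smg1. By the term for libraries 11 to 14 0.014 Herc1, 0.012 Hydin, -0.0062 MMVL30-int, 0.017 Smg1. By KG8-02 left out as well -0.045 C3, 0.011 Chd5, 0.017 Herc1, 0.016 Hydin, -0.014 MMVL30-int, -0.053 RLTR31D_MM, -0.071 RP23-8J15.3, 0.034 Smg1, 0.089 Tcp11.

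With 1 library left out at a time, the sign differed for some libraries in these, given as lowest to highest log2 fold change. From all libraries: -0.11 to 1.76 Acad11, -0.11 to 0.062 Ace, -0.027 to 0.080 Brwd1, -0.12 to 2.97 Elovl5, -0.0033 to 0.19 H2-Eb1, -0.062 to 0.018 Herc1, -0.19 to 0.011 Hk1, -0.70 to 1.06 Hsp90aa1, -0.15 to 2.24 Hsp90ab1, -0.062 to 0.031 Kcnu1, -0.26 to 0.14 L1_Mus3, -0.47 to 1.46 ORR1A3, -0.12 to 0.0059 Plb1, -0.20 to 0.019 Prm2, -0.014 to 0.48 RLTR31D_MM, -0.072 to 1.32 RLTR4_MM-int, -1.28 to 0.054 RP23-330D3.3, -0.050 to 0.042 Smg1, -0.16 to 0.026 Vwf, -0.12 to 4.14 mt-Co1. From those without KG8-12: -0.020 to 0.54 Ago2, -0.045 to 0.37 C3, -0.061 to 0.050 Chd5, -0.065 to 0.083 Dgat2, -0.031 to 0.048 Herc1, -0.075 to 0.090 Hk1, -0.33 to 0.0040 Hsp90ab1, -0.025 to 0.040 Hydin, -0.094 to 0.0039 Kcnu1, -0.33 to 0.15 L1_Mus3, -0.027 to 0.12 MMVL30-int, -0.062 to 0.21 Malat1, -0.58 to 0.058 ORR1A3, -0.023 to 0.047 Plb1, -0.11 to 0.11 Prm2, -0.053 to 0.54 RLTR31D_MM, -0.25 to 0.071 RLTR4_MM-int, -0.071 to 1.02 RP23-8J15.3, -0.039 to 0.053 Smg1, -0.26 to 0.13 Tcp11, -0.035 to 0.15 Vwf, -0.25 to 0.061 mt-Co1.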
